A study of Sus scrofa with 8 samples.

Results

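Neurogenesis in the olfactory epithelium of newborn pigs was followed here through 9 transcription factors of its basal progenitors and newly formed neurons. They are the basic helix-loop-helix factors NEUROG1, NEUROD1, NHLH1, NHLH2 and HES6, the zinc finger protein INSM1, the SRY-box factors SOX4 and SOX11, and the paired-box factor PAX6. They were taken by gene symbol from a table of 25880 pig genes, and all 9 were found. Of these, 7 were matched by identifier and 2, INSM1 and SOX4, by position. Bulk messenger RNA was sequenced from dissected, frozen neuroepithelium of 8 newborn piglets of unstated litter and sex. Wild-type piglets (numbered 5, 9, 12 and 23) served as controls, and the others (6, 18, 20 and 21) were CFTR knockouts, labelled CFTR-null, that is, without the epithelial anion channel whose loss causes cystic fibrosis. The title of the series names progenitor proliferation as its subject, and the comparison below asks whether the neurogenic factors differed between the genotypes.

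The olfactory epithelium replaces its sensory neurons throughout life. Globose basal cells enter a NEUROG1 stage and then, around their last division, express NEUROD1 as they commit to a neuronal fate. NHLH1, NHLH2, INSM1, HES6, SOX4 and SOX11 act in the same window, when precursors leave the cell cycle and switch on neuronal genes, while PAX6 is also known from basal, supporting and gland cells of this epithelium.

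Each library held 30836904 to 43253395 counts on pig genes. Expression is given in counts-per-million (CPM) units, scaled by the TMM method, with means ± SD over 4 piglets in each group. The tissue label was borne out by markers of mature olfactory neurons, whose summed level over 11 genes was 3761 to 6822 CPM, although OMP was not matched to a row. CFTR ranged from 34.03 to 56.6 CPM in wild-type libraries and from 5.24 to 8.37 CPM in the knockouts (edgeR adjusted p = 0.0115), so the groups did not overlap. Knockout piglet 18 stood apart in bone and connective tissue markers, with a summed 42841 CPM over 12 genes against 1328 to 5376 CPM in the other libraries. The Y-linked genes KDM5D and EIF1AY had reads in 2 libraries, wild-type piglets 9 and 12, so sex, which the labels do not give, was in part tied to genotype.

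Set against the length of each gene model, the 9 factors spanned a wide range of levels. NHLH1 was highest, at a mean of 118 ± 17.9 CPM per kilobase of gene model (SD, n = 8). It was followed by HES6 at 78.1 ± 7.88, INSM1 at 38.1 ± 4.87 and SOX11 at 26.4 ± 2.13 CPM per kilobase. Among these first 4 and down to NHLH2, at 16.4 ± 3.29, no gene's range over the piglets overlapped that of the next. NEUROG1 (13.4 ± 2.55), PAX6 (13.0 ± 2.06), SOX4 (11.9 ± 2.28) and NEUROD1 (8.49 ± 1.04) came lower, and from NHLH2 onward neighbouring ranges overlapped. NEUROG1 was above PAX6 in 4 of 8 libraries, so their order was not resolved. NHLH1 stood above 98.2% of the 17175 genes tested and NEUROD1 above 59.2% on this per-length scale. Gene models of 7 of the 9 factors had lengths that are multiples of 3, as a coding sequence without untranslated regions would, whereas those of NEUROD1 and PAX6 did not. The models of NEUROG1, NHLH1, NHLH2, INSM1, SOX11 and SOX4 were single blocks shorter than their RefSeq spans, so reads in their untranslated regions would be missed, whereas that of HES6 had 4 blocks and spanned its RefSeq gene.

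**Figure D1:**
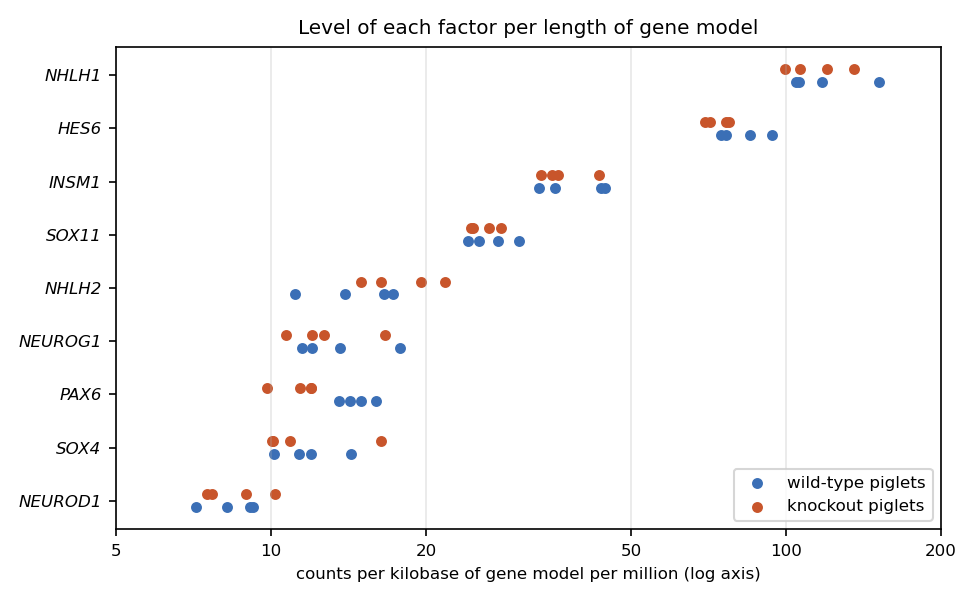
Level of the 9 neurogenic factors in each library, in CPM per kilobase of gene model on a log axis, with blue points for the 4 wild-type and orange points for the 4 knockout piglets. NHLH1 lay between 99.7 and 152 and NEUROD1 between 7.14 and 10.2, and PAX6 was the factor whose groups did not overlap.

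Of 16 close relatives found in the table, 7 were near 0 and fell below the filter on low counts. NEUROG3, the neurogenin of endocrine pancreas, had 0 reads in the 8 libraries together, which allows up to 0.00928 CPM (3 counts, counting error only). NEUROG2, the neurogenin of much of the cortex, had 2 reads, the hair cell factor ATOH1 had 1 read and NEUROD6 had 14 reads in all. INSM2, the paralogue of INSM1, was counted 39 times over the 8 libraries, where INSM1 had at least 1858 reads in each. SOX12, the remaining member of the SOX4 and SOX11 group, named by position, had means of 23.8 ± 3.64 (wild type) and 26.5 ± 4.55 CPM (knockout), a log2 fold change of 0.15 ± 0.15 (SE). NEUROD4 had 3.98 ± 1.26 and 3.20 ± 1.89 CPM in the same order. OLIG2, a factor of glial and some neural precursors, had 19.8 ± 3.22 and 21.2 ± 1.89 CPM. The 9 relatives that passed the filter were split, 5 of them negative and 4 positive, and none had an unadjusted edgeR p under 0.05. PAX9, a paired-box factor of other tissues of the head, had the second smallest p, with 25.2 ± 15.5 CPM in wild type, 15.7 ± 3.79 CPM in knockouts and a log2 fold change of -0.68 ± 0.37.

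PAX6 was the factor that differed most between the genotypes. It encodes a paired-domain and homeodomain protein required for the formation of the olfactory placode. The gene (ENSSSCG00000013320, chromosome 2, 28973472 to 29001265 on the plus strand, build not given in the sources used here) was counted over 16 exon blocks. Wild-type piglets 5, 9, 12 and 23 had 67.6, 57.3, 63.2 and 60.2 CPM. Knockout piglets 6, 18, 20 and 21 had 50.4, 41.4, 50.6 and 48.0 CPM. Every knockout value thus lay below every wild-type value, and knockout piglet 18 was the lowest. Of the 9 factors PAX6 was the one whose groups did not overlap, which held for 5.81% of all genes tested, 3.36% with the knockout lower and 2.45% with it higher.

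The log2 fold change of PAX6 was -0.38 ± 0.09 (SE), with a 95% interval of -0.58 to -0.18, so the knockout level was 76.7% of the wild-type mean. Its unadjusted edgeR p was 0.00197, and 0.582% of genes had a smaller one. After Benjamini-Hochberg adjustment over all genes edgeR gave 0.327, and PAX6 did not pass. DESeq2, which called 1.31% of the genes it tested (0.806% lower in the knockout), gave an adjusted p of 0.0248 for PAX6. With single libraries left out DESeq2 called PAX6 in 2 of 8 fits, without wild-type piglet 12 (adjusted p = 0.0353) and without knockout piglet 18 (0.0460), and the adjusted p in the other fits was 0.0518 to 0.126. In edgeR the log2 fold change was -0.32 without knockout piglet 18, -0.29 without it and wild-type piglet 5, and -0.43 without the wild-type libraries that carried Y-linked reads.

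Markers of other cells that express PAX6 were compared between the same libraries. Fewer cells of a type and less RNA per cell cannot be told apart in bulk tissue. For supporting (sustentacular) cells, 8 of 12 markers were measured, with summed levels of 5968 to 7862 CPM in wild-type and 5466 to 7577 CPM in knockout libraries. Within this list 6 of 8 had a negative log2 fold change, and 2 were lower by unadjusted edgeR p under 0.05 (5.84% of all genes), the keratins KRT8 at -0.43 ± 0.16 and KRT18 at -0.52 ± 0.21. ERMN (0.54 ± 0.30) and CBR2 (0.16 ± 0.19) of the same list were positive. Horizontal basal cell markers, 7 of 9 measured, summed to 268 to 381 CPM in wild-type and 255 to 334 CPM in knockout libraries. Of these, 5 of 7 were negative, with a median log2 fold change of -0.18. Bowman gland markers, 7 of 9 measured, summed to 907 to 1562 and 735 to 1277 CPM in the same order. Only 3 of these 7 were negative, and their median log2 fold change was 0.01. No measured gene of these 3 lists was at 0 in all libraries, while KRT5, KRT14 and CYP2G1, which define basal and supporting cells, were not matched. Knockout piglet 18 had the lowest sum in all 3 lists. Mature neuron markers had the opposite sign, with sums of 3761 to 5741 CPM in wild-type and 5811 to 6822 CPM in knockout libraries, and 11 of 11 had a positive log2 fold change, 4 of them with an unadjusted edgeR p under 0.05 (5.36% of all genes were higher by that p). Genes that respond to tissue handling, 9 of 10 measured, summed to 477 to 663 CPM in wild-type libraries and 402 to 493 CPM in the knockouts, with 8 of 9 negative and none at 0 in all libraries. The median log2 fold change of these handling genes was -0.40, with 3 lower and none higher by unadjusted edgeR p under 0.05. For glia, 10 of 11 markers were measured, 9 of them negative, with sums of 274 to 473 and 313 to 341 CPM. Their median was -0.43, with 3 lower and 1 higher by that p. The part of these cells and of handling in the PAX6 difference was not tested.

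**Figure D2:**
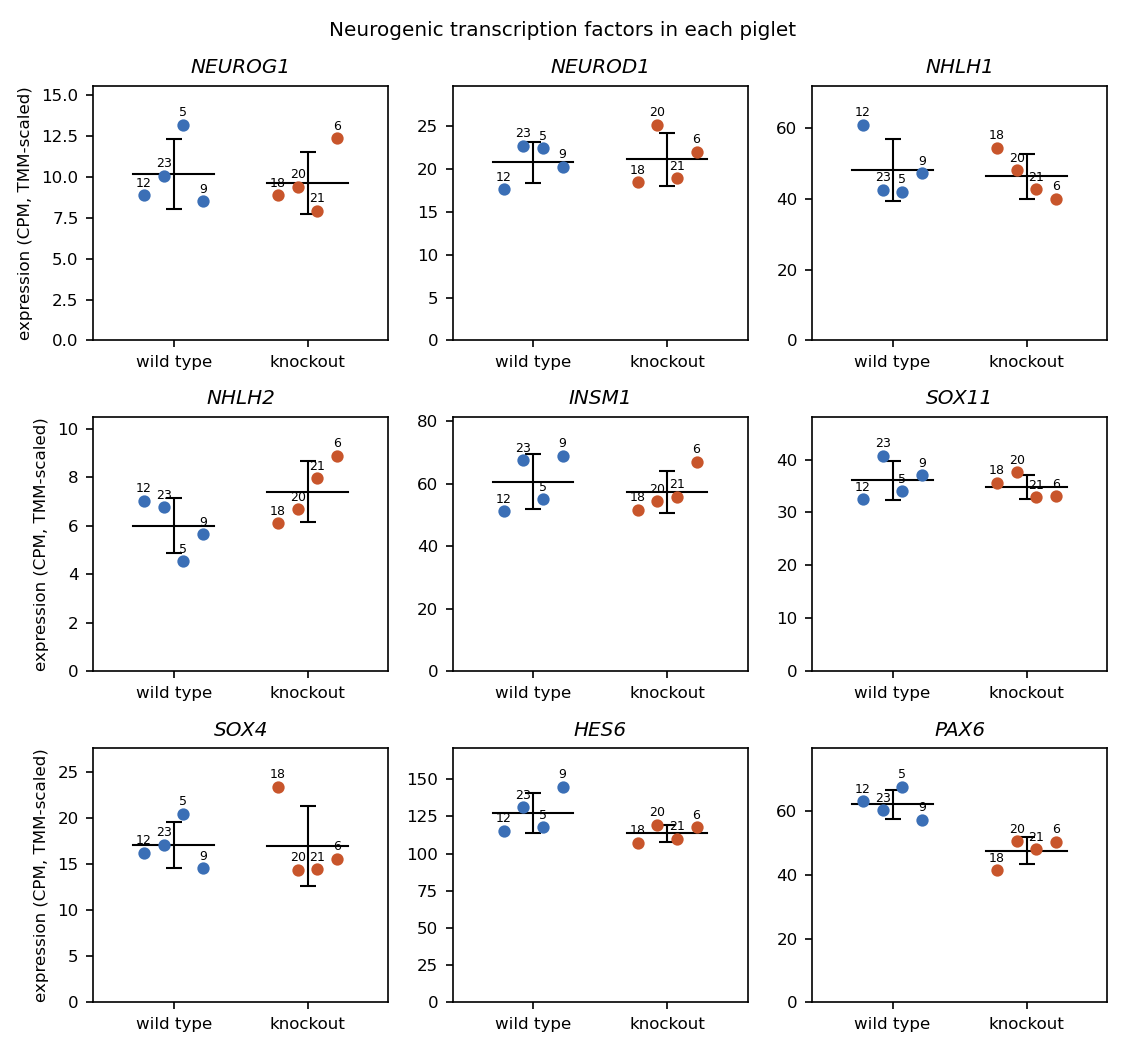
Expression of each of the 9 factors in CPM in every piglet (numbered points), with a bar at the mean of each genotype and whiskers of 1 SD (n = 4 each). The groups are apart for PAX6, 57.3 to 67.6 CPM in wild-type and 41.4 to 50.6 CPM in knockout piglets, and overlap in the 8 other panels.

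The other 8 factors overlapped between the genotypes, and none of them passed the test. Over all genes edgeR called 1 gene, CFTR (0.00582% of those tested), and none of the 9 factors. At an unadjusted p under 0.05 edgeR counted 1 of 9, PAX6, where 11.2% of all genes had such a p. Among the 9 factors DESeq2 called 1, and limma with sample quality weights called 0 (0.064% of all genes), with 2, PAX6 and HES6, at an unadjusted p under 0.05, which 22.6% of all genes had in limma. The 9 log2 fold changes were negative in 7 and positive in 2, with a median of -0.06 against 0.01 over all genes tested, of which 48.4% were negative. A difference larger than 1.5-fold in either direction lay outside the 95% interval of 7 of these 8 factors, the exception being NHLH2.

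NEUROG1 marks the immediate neuronal precursors and is needed for most olfactory neurons to form. It was counted over a gene model of 1 block of 741 bases (ENSSSCG00000014309, chromosome 2, 137765942 to 137766682, minus strand). Its levels were 13.2, 8.51, 8.88 and 10.1 CPM in wild-type piglets 5, 9, 12 and 23, and 12.3, 8.89, 9.39 and 7.92 CPM in knockout piglets 6, 18, 20 and 21. Each group had 1 piglet above 12 CPM, wild-type piglet 5 and knockout piglet 6, and the other 6 piglets of both groups lay between 7.92 and 10.1 CPM. The means were 10.2 ± 2.12 and 9.64 ± 1.91 CPM, a log2 fold change of -0.08 ± 0.19 (SE) with a 95% interval of -0.51 to 0.35.

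NEUROD1 follows NEUROG1 and promotes terminal neuronal differentiation. The gene (ENSSSCG00000016011, chromosome 15, 87175766 to 87179819, minus strand, 2 exon blocks) had 22.5, 20.3, 17.7 and 22.8 CPM in wild-type piglets 5, 9, 12 and 23. In knockout piglets 6, 18, 20 and 21 it had 22.1, 18.5, 25.2 and 19.0 CPM. Wild-type piglet 12 was the lowest and knockout piglet 20 the highest, and the other 6 piglets of both groups lay between 18.5 and 22.8 CPM. The log2 fold change was 0.03 ± 0.13, the interval -0.27 to 0.32, and the edgeR adjusted p 0.945.

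NHLH1 and NHLH2 encode short helix-loop-helix proteins of newly formed neurons, and NHLH2 is also known for its role in the neurons that produce gonadotropin-releasing hormone. NHLH1 (ENSSSCG00000006384, chromosome 4, 90109057 to 90109458, minus strand) had 42.0, 47.3, 60.9 and 42.7 CPM in wild-type piglets 5, 9, 12 and 23, and 40.1, 54.5, 48.2 and 42.8 CPM in knockout piglets 6, 18, 20 and 21. Wild-type piglet 12 and knockout piglet 18 were the highest of their groups. The log2 fold change of NHLH1 was -0.06 ± 0.14 with an interval of -0.38 to 0.27.

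NHLH2 (ENSSSCG00000006744, chromosome 4, 104857635 to 104858042, plus strand) was the least counted of the 9, with 179 to 390 reads per library. Its levels were 4.54, 5.67, 7.04 and 6.77 CPM in wild-type piglets 5, 9, 12 and 23, and 8.88, 6.10, 6.68 and 7.97 CPM in knockout piglets 6, 18, 20 and 21. Knockout piglets 6 and 21 were above every wild-type piglet, and knockout piglets 18 and 20 fell within the wild-type range. NHLH2 had the most positive difference of the 9, at 0.30 ± 0.19 on the log2 scale. Its interval of -0.13 to 0.74 holds both no difference and a 1.67-fold higher level, and the edgeR adjusted p was 0.540. Counting alone gives a relative error of 5.06% to 7.47% for its reads, against a spread between piglets of 19.0% in wild-type and 16.9% in knockout libraries. The gene lies within the span of SLC22A15 on the other strand without touching its exons, and the strand setting of the counting is unknown from the labels and headers.

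**Figure D3:**
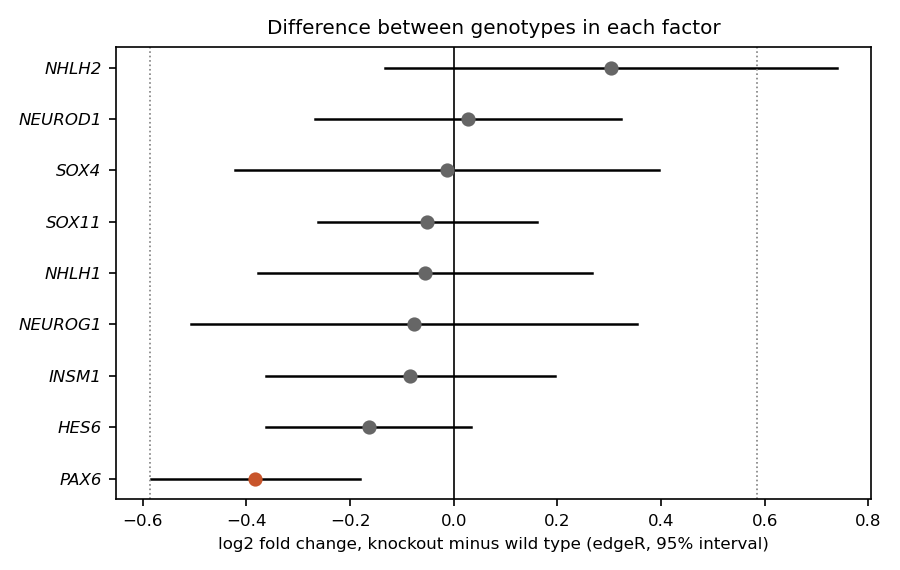
Log2 fold change of each of the 9 factors, knockout minus wild type, from edgeR with 4 libraries per genotype, and its 95% interval as a line; dotted lines stand at a 1.5-fold difference. The PAX6 interval, -0.58 to -0.18, was the one that did not include 0, and the point for NHLH2 was the farthest on the higher side at 0.30.

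HES6 is an unusual HES protein that opposes HES1 and favours neuronal differentiation. It was the most counted of the 9 factors (ENSSSCG00000016342, chromosome 15, 137785761 to 137787694, minus strand), with 3847 to 5631 reads per library. In wild-type piglets 5, 9, 12 and 23 it had 118, 145, 115 and 131 CPM. In knockout piglets 6, 18, 20 and 21 it had 118, 107, 119 and 110.0 CPM. Wild-type piglets 9 and 23 exceeded all knockout piglets, wild-type piglets 5 and 12 lay within the knockout range, and knockout piglets 18 and 21 were below every wild-type piglet. Means were 127 ± 13.6 and 114 ± 5.91 CPM, a log2 fold change of -0.16 ± 0.09 with an interval of -0.36 to 0.03 and an edgeR adjusted p of 0.489 (limma 0.165). Without wild-type piglet 9 the log2 fold change was -0.10.

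INSM1, a zinc finger repressor that promotes the basal, neuron-producing divisions of olfactory progenitors, was named by position (ENSSSCG00000007106, chromosome 17, 28379880 to 28381427, plus strand). It had 55.1, 69.0, 51.2 and 67.7 CPM in wild-type piglets 5, 9, 12 and 23, and 67.1, 51.8, 54.4 and 55.9 CPM in knockout piglets 6, 18, 20 and 21. High values near 67 to 69 CPM were found in both genotypes, and so were low values near 51 to 52 CPM. Its log2 fold change was -0.08 ± 0.12 with an interval of -0.36 to 0.19.

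SOX11, which switches on neuronal structural genes such as TUBB3, was among the steadiest of the 9 (ENSSSCG00000008649, chromosome 3, 129798854 to 129800197, minus strand). Its levels were 34.05, 37.0, 32.5 and 40.7 CPM in wild-type piglets 5, 9, 12 and 23, and 33.1, 35.6, 37.6 and 32.9 CPM in knockout piglets 6, 18, 20 and 21. The knockout range lay wholly inside the wild-type range. The log2 fold change was -0.05 ± 0.09 and the interval -0.26 to 0.16, the latter a 0.834- to 1.12-fold level.

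SOX4, the close relative of SOX11, was named by position from a row lying wholly within SOX4 and no other RefSeq gene (ENSSSCG00000001081, chromosome 7, 16891319 to 16892752, plus strand). That rule returned the known symbol for 85.3% of the genes on which it could be checked. SOX4 had 20.5, 14.5, 16.3 and 17.1 CPM in wild-type piglets 5, 9, 12 and 23, and 15.6, 23.4, 14.4 and 14.5 CPM in knockout piglets 6, 18, 20 and 21. Knockout piglet 18 was the highest of all 8, and the other 3 knockout piglets lay between 14.4 and 15.6 CPM. Means were 17.1 ± 2.49 and 17.0 ± 4.32 CPM and the log2 fold change was -0.01 ± 0.18 (interval -0.42 to 0.40). Without knockout piglet 18 it was -0.21, with an edgeR adjusted p of 0.532.

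SOX4 is also expressed in bone-forming and connective tissue cells, and piglet 18 was the library with the most of their transcripts. Of 13 bone and connective tissue markers 12 were measured, none at 0 in all libraries, and COL1A1, the main bone collagen, reached 17394 CPM in piglet 18. The next highest summed levels, 5376 CPM in wild-type piglet 9 and 4270 CPM in wild-type piglet 5, went with SOX4 at 14.5 and 20.5 CPM. SOX11 in piglet 18, at 35.6 CPM, was inside the range of the other libraries. The part of bone and connective tissue in the SOX4 value of piglet 18 was not tested.

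**Figure D4:**
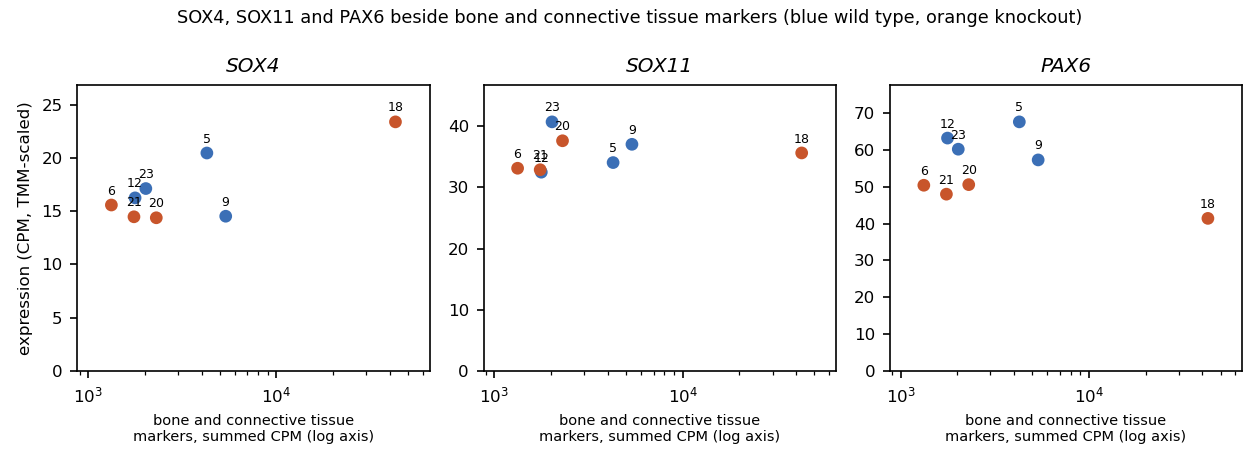
Expression of SOX4, SOX11 and PAX6 in CPM (linear axes from 0) against the summed CPM of 12 bone and connective tissue markers (log axis) in each numbered piglet, blue for wild type and orange for knockout. Piglet 18, at 42841 CPM of markers, had the highest SOX4 (23.4 CPM), the lowest PAX6 (41.4 CPM) and a SOX11 level within the range of the rest.

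Ratios between factors within a library depend little on its size and were compared between the genotypes. Their absolute values also depend on the gene models. Those of NEUROG1 and NHLH1 had lengths that are multiples of 3, whereas that of NEUROD1 did not. Counted per kilobase, NEUROD1 was 0.620 times NEUROG1 in wild-type and 0.663 times in knockout piglets (geometric means), a difference of 0.10 in log2 (two-sided exact permutation p = 0.543, n = 4 each). NHLH1 was 14.2 and 13.5 times NEUROD1 in the same order (exact permutation p = 0.714), and 8.77 and 8.93 times NEUROG1 (exact permutation p = 0.971). SOX11 was 2.26 and 2.23 times SOX4 (exact permutation p = 0.943). All 4 adjusted p-values were 0.971, and the smallest p that 4 piglets against 4 can give is 0.0286. These ratios differed more between piglets of 1 genotype than between the genotypes: NHLH1 was 5.87 times NEUROG1 in wild-type piglet 5 and 12.6 times in wild-type piglet 12, and 5.98 times in knockout piglet 6 and 11.3 times in knockout piglet 18.

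Variation among piglets of 1 genotype differed between the factors. PAX6, SOX11 and HES6 varied least, each with a within-genotype SD of 0.12 in log2 CPM, below the median of 0.21 over all genes tested. SOX4 (0.27), NEUROG1 (0.26) and NHLH2 (0.25) varied most. As a set, the 9 factors showed no shared rise and fall from piglet to piglet. With 8 libraries and 36 pairs, a relation between single factors could be missed. Of 36 pairs, 16 had a positive and 20 a negative Pearson correlation of log2 CPM over the 8 libraries, with a median of -0.04. One pair had an unadjusted p under 0.05, INSM1 and HES6 (r = 0.77, exact permutation p = 0.0147, adjusted over 36 pairs 0.528; Spearman's rho = 0.67, p = 0.0831, adjusted 0.680). Without wild-type piglets 9 and 23, which were the 2 farthest from the median of INSM1, r was 0.37, so the high r rests on those libraries, although leaving out the most extreme values also narrows the range. On deviations from the genotype means, over all 8 libraries, r was 0.81. The lowest value was that of NHLH1 and INSM1 (r = -0.62, exact permutation p = 0.101, adjusted 0.870; rho = -0.64, p = 0.0962, adjusted 0.680), which became -0.16 without wild-type piglet 12 and knockout piglet 18.

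The genes whose level followed each factor most closely over the 8 libraries were taken as the highest Pearson correlations among 13272 genes. For PAX6 they were CPEB2, an mRNA-binding regulator of translation (r = 0.96), TRPM8, the cold-sensing channel (0.95), and the phospholipase PLB1 (0.94), which had log2 fold changes of -0.24, -0.50 and -0.44. The nearest gene to NEUROG1 was the kinase PAK1 (0.95), to NEUROD1 the tissue factor gene F3 (0.93) and to NHLH1 the chromatin remodelling subunit SMARCD1 (0.96). NHLH2 was followed most closely by NECAP1, an endocytosis protein (0.98), INSM1 by TENT4A, a poly(A) polymerase (0.98), and SOX11 by the corepressor LCOR (0.94). SOX4 was nearest to RCAN1, the calcineurin regulator (0.98), and HES6 to the deubiquitinase USP7 (0.98). These values describe 8 libraries of 1 tissue whose marker sums differ from piglet to piglet, and no factor of the 9 was among the 3 nearest genes of another. With 13272 genes searched over 8 libraries, correlations this high can arise from the search alone, and they were not tested.

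Other genes of the pathway were read from lists by role. Among regional and early factors of the epithelium, 12 of 13 were tested and none passed the adjusted test. By unadjusted edgeR p under 0.05, 3 of them were lower, against 5.84% of all genes, and none was higher (5.36% of all genes). Among them were MEIS1, a homeobox cofactor (24.9 ± 7.37 CPM in wild type, 16.8 ± 2.0 CPM in knockouts, log2 fold change -0.57 ± 0.20), and EYA2, a transcriptional coactivator and phosphatase (-0.26 ± 0.10). The median of the list was -0.17, and 7 of 12 were negative.

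The 3 E proteins that pair with proneural factors, TCF3, TCF4 and TCF12, had log2 fold changes of -0.07 ± 0.06, 0.09 ± 0.15 and 0.04 ± 0.14. Of the antagonists, HES, HEY and ID genes, 9 of 11 were tested, with 4 negative and a median of 0.03. HEYL, a Notch target also known from vessel walls, had the smallest p (0.0326 unadjusted in edgeR) and a log2 fold change of 0.53 ± 0.21. HES1, the repressor that HES6 opposes, had -0.19 ± 0.12, ID2 had 0.26 ± 0.15 and ID3 had -0.35 ± 0.24. The 10 genes of the complex that INSM1 recruits, all tested, had a median of -0.01. KDM1A, its histone demethylase, averaged 159 ± 8.69 CPM in wild type and 156 ± 6.71 CPM in the knockouts. The neural corepressor RCOR2 had -0.23 ± 0.12 and HDAC1 -0.25 ± 0.10, the latter the 1 gene of 10 with an unadjusted edgeR p under 0.05, near the 11.2% of all genes.

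Of the neuronal genes that follow the 9 factors, 21 of 24 were tested, and 18 were positive and 3 negative with a median of 0.13. None passed the adjusted test, and 2 were higher by unadjusted edgeR p under 0.05, against 5.36% of all genes. These were BCL11B, a zinc finger factor (9.85 ± 2.74 CPM in wild type, 14.2 ± 2.61 CPM in knockouts, log2 fold change 0.52 ± 0.22), and ST18, a MYT-family factor (0.42 ± 0.18). DCX, the microtubule protein doublecortin, had 0.66 ± 0.31 and TAGLN3 0.37 ± 0.22. A list of 10 immature neuron markers, which shares DCX and other genes with the followers, was more even. In it 4 of 10 were negative, the median was 0.05 and none had an unadjusted edgeR p under 0.05. Its sums overlapped, at 4659 to 6145 CPM in wild-type and 5500 to 6147 CPM in knockout libraries. Genes of progenitors and dividing cells had the opposite balance to the neuronal genes that follow, with 17 of 20 tested members negative and a median of -0.15. Of them, 8 were lower by unadjusted edgeR p under 0.05, again against 5.84% of all genes. None of the 20 passed the adjusted test. The helicase subunits MCM3 (-0.86 ± 0.18), MCM2 (-0.72 ± 0.16) and MCM6 (-0.49 ± 0.14) and the S-phase activator E2F1 (-0.58 ± 0.15) had the smallest p. The other 4 of the 8 were likewise genes of DNA replication, MCM4, MCM5, CDC6 and RRM2. MCM7, a further subunit of the helicase, had -0.04 ± 0.07, with 110 ± 4.96 CPM in wild type and 107 ± 6.72 CPM in knockouts. KIT (0.33 ± 0.26) and CXCR4 (0.11 ± 0.12), known from progenitors, were positive without passing the test. Among genes of mitotic cells, CDK1 had -0.31 ± 0.15, CCNB1 -0.13 ± 0.13 and the proliferation marker MKI67 -0.08 ± 0.15. The topoisomerase TOP2A had 0.03 ± 0.17, AURKB -0.04 ± 0.10 and BUB1 -0.05 ± 0.18. The sums of mature neuron markers given above did not overlap between the same groups, with a highest wild-type sum of 5741 CPM and a lowest knockout sum of 5811 CPM. Taken singly, CNGA2 was the 1 gene of that list whose groups did not overlap, which held for 2.45% of all genes with the knockout higher. STOML3, the most counted gene of the list, had 1981 ± 407 CPM in wild type and 2520 ± 212 CPM in knockouts, and its groups overlapped. Sums of supporting cell markers overlapped, and the part of either cell type was not tested. Whether the balance of these lists differs from that of the 9 factors was not tested.

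**Figure D5:**
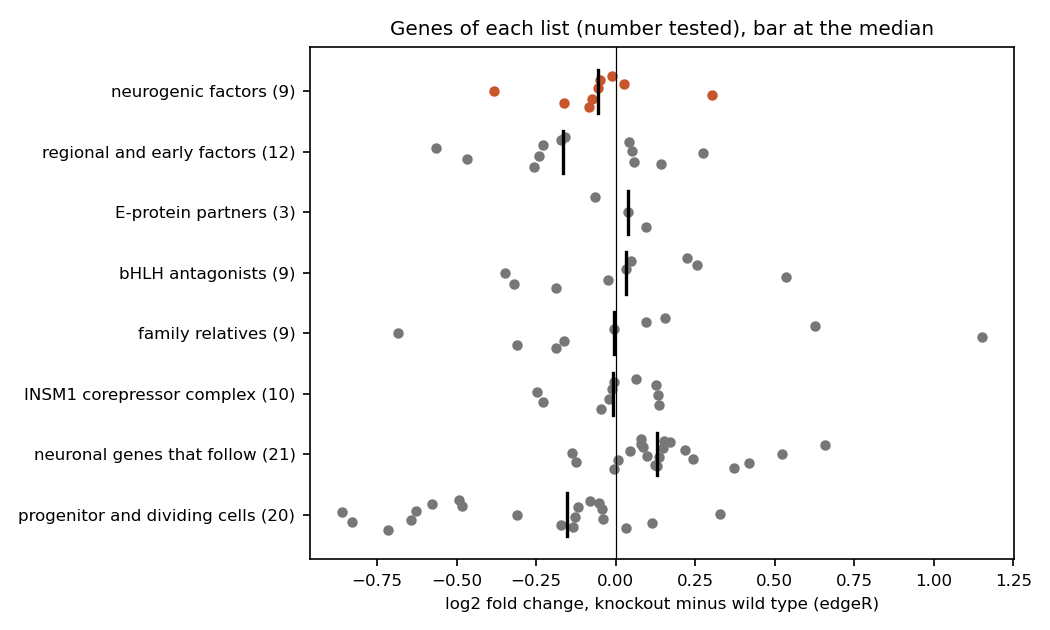
Log2 fold change, knockout minus wild type, of every tested gene in each list (number of genes in brackets), with a black bar at the list's median and the 9 neurogenic factors in orange. The medians run from -0.17 for regional and early factors to 0.13 for the neuronal genes that follow, and the 9 factors have a median of -0.06.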

How the data were processed

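Messenger RNA of 8 piglets, each its own library per the labels, was sequenced. The authors deposited 1 table of whole-number counts of reads for every gene, not normalized, with gene model lengths, in the layout of featureCounts per the file headers. The submitters' processing notes list FastQC, STAR 2.4.0, Subread 1.5.0-p3, featureCounts, HTSeq and DESeq2 without saying what each did. Genome build and strand setting are not given in the sources used here. Library sizes and tests used the 25880 pig gene rows, and 5988 other rows were left out.

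Symbols came from a table of gene identifiers for 14857 rows. Another 1623 rows were named by an overlap of at least 50% of both spans with a RefSeq gene of assembly Sscrofa11.1, and 284 by lying wholly within 1 RefSeq gene; on rows of known symbol these rules returned it for 94.4% and 85.3%. Genotype was tested in R 4.3.3 by edgeR 4.0.16, quasi-likelihood F-test (TMM, default filter on low counts, robust dispersion, genotype as the factor), Benjamini-Hochberg adjusted at 0.05 over 17175 genes. Standard errors and 95% intervals were derived from the F statistic. DESeq2 1.42.0 and limma 3.58.1 were alternatives, and the pipeline was tested on simulated data. Correlations used log2(CPM + 0.5), and ratios used counts with 0.5 added, per kilobase.

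Named were the 9 factors, CFTR and up to 4 genes of each list with the smallest p. The 3 genes nearest to each factor by correlation were named as well. The relatives near 0, NEUROD4, OLIG2, KRT8, KRT18, ERMN, CBR2, COL1A1, KDM1A, CNGA2 and STOML3 were chosen after their values were seen. So were the progenitor-list genes beyond its first 4. The factors and lists were chosen with earlier results of these data known. A planned stage ratio and some genes named by this rule are not reported here. Protein and promoter sequences were not used here.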

Additional observations from a re-analysis of the deposited data

Results flagged for a closer look

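The SOX4 level of knockout piglet 18, 23.4 CPM, lay farther from the other 3 knockout piglets (14.4 to 15.6 CPM) than chance gives in about 1 of 20 such groups of 4. It was the one value so marked among 26 groups of libraries examined, 18 of factor levels and 8 of ratios. At that rate 1 mark among 26 groups is not unusual. The same library had 42841 CPM of bone and connective tissue markers, and the part of that tissue was not tested.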

How the results depend on the processing

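None of the 9 factors was called in any edgeR or limma fit, and DESeq2 called 1, PAX6. Over all genes 1 was called in the reported fit, 4 with no filter, 219 by DESeq2, 11 by limma with sample quality weights, 0 to 19 with single libraries left out (0 without piglet 6, 20 or 23, 2 without piglet 5 or 9 and 19 without piglet 12), 2 after removing piglets 5 and 18 together, and 0 without the libraries with Y-linked reads, an alternative chosen after seeing the data, as were the DESeq2 fits with single libraries left out. PAX6, HES6, INSM1 and NHLH2 kept their sign in all 17 alternatives. With single libraries left out INSM1 ranged from -0.018 (without piglet 9) to -0.17 (without piglet 6), around -0.08, and NHLH2 from 0.18 (without piglet 5) to 0.38, around 0.30. For PAX6 the log2 fold change was -0.43 to -0.29 and the edgeR and limma adjusted p 0.101 to 0.763. Signs of differences near 0 changed. With single libraries left out NEUROG1 ranged from -0.22 to 0.066, NEUROD1 from -0.067 to 0.085, NHLH1 from -0.14 to 0.071, SOX11 from -0.10 to 0.012 and SOX4 from -0.21 to 0.076. NEUROG1 was 0.10 without piglets 5 and 18, and -0.27 both with the presence of Y-linked reads as a covariate and without the libraries that had them. NEUROD1 was -0.00997 in limma, and -0.094 and -0.10 in those fits, where NHLH1 was 0.13 in both. No ratio passed in any fit, but this outcome was largely fixed by the number of piglets. Without piglets 5 and 18 the exact permutation test cannot give a p under 0.05. In the other fits a ratio could pass the adjustment only if several ratios reached the smallest possible p together. With single libraries left out the log2 difference ranged from 0.00408 to 0.20 for NEUROD1 to NEUROG1, -0.17 to 0.22 for NHLH1 to NEUROG1, -0.21 to 0.12 for NHLH1 to NEUROD1, and -0.13 to 0.14 for SOX11 to SOX4; without piglets 5 and 18 it was 0.034, -0.28, -0.31 and 0.0202 in the same order. The cause of these changes was not tested. No pair of factors had an adjusted p under 0.05 with other size factors, with deviations from the genotype mean or with single libraries left out. No paired analysis was possible because the groups share no piglet number.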
